A study of Mus musculus with 20 samples.

Results

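The genes described here are *Meis1*, *Meis2*, *Meis3*, *Pknox1*, *Pknox2*, *Pbx2*, *Pbx3* and *Pbx4*, which encode homeodomain partners of Hox proteins. They were taken by symbol, and all 8 were found among the 43280 genes in the count files of the series. Hox proteins bind DNA with limited selectivity alone, and Pbx, Meis and Pknox (Prep) proteins, which belong to the TALE class of homeodomain proteins, bind together with them and with each other. Meis and Pknox proteins share a domain through which they contact Pbx proteins, and this contact helps to hold Pbx proteins in the nucleus. In the embryo, *Meis* and *Pbx* genes are known for roles in patterning along the body axis, in limb and in visceral mesoderm.

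RNA-seq was performed on GFP+ cells sorted from the stomach or the intestine of E13.5 embryos of the genotype Bapx1-cre;Rosa26mTmG (control) or Eedfl/fl;Bapx1-cre;Rosa26mTmG (*Eed* KO), with 2 libraries in each of the 4 groups. *Bapx1*-Cre acts in the mesenchyme of the embryonic gut, and all of these groups carry the Cre and the mTmG reporter, which turns recombined cells and their descendants GFP+. The labels give the strain as C57BL/6, whereas the study lists the floxed *Eed* and the reporter lines as mixed backgrounds, so a difference in background between the genotypes cannot be told apart from the *Eed* deletion. The adult libraries, 2 labelled WT and 2 labelled EED-KO, came from intestinal mesenchyme. Per the methods of the study, the adult cells were GFP+ cells recombined by the tamoxifen-inducible *Pdgfrb*-CreERT2, so the EED-KO animals also carried the driver, the reporter and the floxed *Eed* alleles. The adult mice, whose age the study gives only approximately, were treated with tamoxifen on consecutive days. For its adult analyses, the study dissected mice within days of the last dose and gives no separate interval for the sequenced mice. ATAC-seq covered the 4 embryonic groups, with the 2 samples of a group pooled into 1 list of broad peaks. The study describes the 2 samples of a sequenced group as biological replicates. How many embryos or mice went into each is not given in the sources used here.

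Counts on genes ranged from 30236159 to 39606157 in the embryonic and from 11404712 to 15903642 in the adult libraries. *Eed*, which encodes the subunit of Polycomb Repressive Complex 2 that was deleted, was at 38.1 and 40.1 CPM (counts scaled to library size by TMM) in the control intestine and at 40.1 and 41.5 CPM in the control stomach. It was at 10.7 and 8.59 CPM in the *Eed* KO intestine and at 11.4 and 7.41 CPM in the *Eed* KO stomach, so every *Eed* KO library was below every control library. In the adult libraries, *Eed* was at 29.7 and 33.4 CPM in WT and at 25.7 and 25.1 CPM in EED-KO, a log2 fold change of -0.32 (SE 0.21, adjusted p = 0.317 with edgeR's quasi-likelihood test). The label of the adult EED-KO libraries is therefore not checked by this transcript. All 8 mesenchymal marker genes, such as *Pdgfra* and *Col1a2*, had counts in every library, with summed levels of 13500 to 25120 CPM in the embryonic libraries against 34.2 to 64.8 CPM for 5 epithelial markers.

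The 8 genes were all detected in the embryonic gut mesenchyme, at levels that differed widely from gene to gene and little from group to group. To compare genes, TPM (a level that corrects for gene length and sums to the same total in every library, without TMM) were computed. The length is that of all exons of a gene model, 3640 bp for *Pbx2* and 12043 bp for *Meis2*, and the order by TPM rests on it. By CPM, without length, *Meis2* (486) and *Meis1* (231) were above *Pbx2* (185) in the control intestine. The order in the control intestine was *Pbx2* at 152 ± 2.83 TPM (SD, n = 2), *Meis2* at 121 ± 1.20, *Meis1* at 65.8 ± 2.70, *Pbx3* at 41.0 ± 2.04, *Pknox1* at 30.4 ± 2.11, *Meis3* at 28.5 ± 0.707, *Pknox2* at 15.5 ± 0.212 and *Pbx4* at 1.22 ± 0.358. *Pknox1* and *Meis3* were the only neighbors in this order whose libraries overlapped, in the intestine of either genotype. The order was the same in the stomach, where no neighbors overlapped in either genotype. *Pbx4* stood apart, with 24 to 39 counts per embryonic library.

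The sum of the 8 genes was 456 and 454 TPM in intestinal control libraries, against 426 and 404 TPM in gastric ones. Without *Eed*, it was 428 and 440 TPM in intestinal and 379 and 401 in gastric cells. In the 4 control libraries, the *Meis* genes made up 44.9% to 47.5% of this sum, the *Pbx* genes 42.6% to 44.8% and the *Pknox* genes 9.74% to 10.9%. In the 4 *Eed* KO libraries the shares were 42.5% to 45.8%, 42.8% to 48.7% and 8.88% to 11.6%. All 3 ranges, taken over both organs, overlapped those of the controls. Within the stomach each family overlapped as well, but within the intestine the *Meis* share was 47.0% and 47.5% in control against 42.5% and 44.0% in *Eed* KO libraries and the *Pbx* share 42.6% and 42.7% against 48.7% and 44.4%, without overlap. These shares were not tested.

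**Figure D1:**
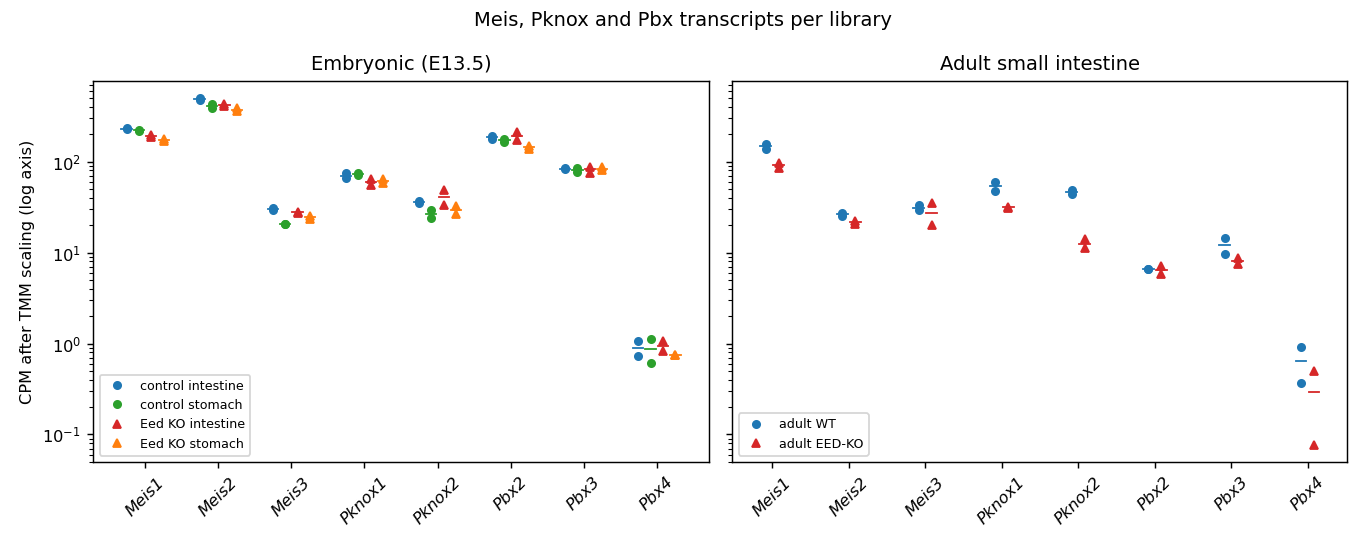
Levels of the 8 genes in each library as CPM after TMM scaling, on a log axis, with a short line at the mean of each pair of libraries. In the embryonic panel the symbols of a gene lie close together, whereas in the adult panel *Pknox2* is at 43.7 and 48.4 CPM in WT and at 13.9 and 11.2 CPM in EED-KO.

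The adult intestinal mesenchyme held a different mix of these transcripts. In the WT libraries, *Meis1* led at 36.0 ± 4.07 TPM (SD, n = 2), followed by *Meis3* at 25.2 ± 1.63, *Pknox1* at 19.9 ± 2.91 and *Pknox2* at 16.99 ± 0.877, with each of these apart from the next. *Meis2*, *Pbx3* and *Pbx2* were at 5.62 ± 0.458, 5.12 ± 1.58 and 4.64 ± 0.0933 TPM, with overlapping libraries from *Meis2* to *Pbx3* and from *Pbx3* to *Pbx2*. *Pbx4* was lowest at 0.734 ± 0.431 TPM. The sum was 114 TPM in both WT libraries, of which the *Meis* genes made up 60.2% and 56.8%, the *Pknox* genes 29.9% and 34.8% and the *Pbx* genes 9.94% and 8.44%. *Pbx2* and *Meis2* led the embryonic control intestine at 152 and 121 TPM and ranked 7 and 5 of 8 in the adult WT libraries, whereas *Pknox2* was at 15.5 and 16.99 TPM. No test was made between ages, because age, Cre driver, library kit and strandedness differed together and cannot be told apart.

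To find whether the cofactor genes differ between the organs, the control intestine was compared with the control stomach. *Meis3* was higher in the intestine. It was at 31.2 and 29.2 CPM in the intestine and at 20.8 and 20.5 CPM in the stomach, with no overlap. The log2 fold change was 0.55 (SE 0.099, 95% interval 0.32 to 0.78, adjusted p = 0.0175), a 1.46-fold difference. The adjusted p of *Meis3* rose to between 0.0720 and 0.141 when any 1 of the 4 libraries was left out, with log2 fold changes of 0.51 to 0.60.

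*Pknox2*, which encodes the less widely expressed of the Pknox proteins, was at 36.9 and 35.0 CPM in the control intestine and at 24.1 and 29.3 CPM in the control stomach. The libraries did not overlap, but the difference did not pass the test (log2 fold change 0.43, SE 0.20, adjusted p = 0.334). *Meis2*, a gene needed in cranial and cardiac neural crest, was at 497 and 475 CPM in the intestine and at 428 and 391 CPM in the stomach (log2 fold change 0.25, SE 0.095, adjusted p = 0.217). The remaining 5 genes had log2 fold changes between -0.07 and 0.11.

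In this comparison, with libraries not paired by replicate number, 1 of the 8 genes passed an adjusted p of 0.05, against 6.83% of all 16218 genes tested. None also passed a log2 fold change of 1, against 5.07%. More of the 8, and more of all genes, passed the adjusted p in the fit with a replicate block, given at the end. The libraries of the groups did not overlap for 5 of the 8 genes, against 51.2% of all genes. The median size of the log2 fold change was 0.09 over the 8 genes and 0.17 over all genes.

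PRC2 deposits the repressive mark H3K27me3, and the *Eed* KO groups ask which genes change in the mesenchyme without it. In the stomach, *Meis1* was lower in the *Eed* KO cells. *Meis1*, a Hox partner also known from leukemia and hematopoietic stem cells, was at 219 and 225 CPM in control libraries and at 177 and 169 CPM in *Eed* KO libraries, with no overlap. The log2 fold change was -0.36 (SE 0.082, 95% interval -0.55 to -0.17, adjusted p = 0.0398), so that the *Eed* KO level was 77.9% of the control. Without any 1 of the 4 libraries, the adjusted p was between 0.119 and 0.227. The direction is relative to the other genes of the same library: scaled by the totals of the spike-in RNA, the median of all genes shifted by 2.39 on the log2 scale in this comparison and *Meis1* had a log2 fold change of 2.02, less than that shift. In the intestine that scaling shifted the median by 1.84. All changes with *Eed* loss, those of Hox genes included, are therefore given relative to the other genes, and a decrease smaller than the shift turns positive on the spike-in scale. With 1 spike-in factor removed by RUVg, *Meis1* was at -0.26 (adjusted p = 0.220).

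The other 7 genes did not pass the test in the stomach. *Pbx2*, a broadly expressed Pbx gene, was at 176 and 166 CPM in control and at 149 and 138 CPM in *Eed* KO libraries (log2 fold change -0.25, SE 0.11, adjusted p = 0.232). *Pknox1*, whose product Prep1 is needed in early embryos, was at 75.9 and 70.7 CPM and at 57.9 and 63.8 CPM (log2 fold change -0.27, SE 0.12, adjusted p = 0.238). *Meis3* pointed the other way, with 20.8 and 20.5 CPM in control and 23.6 and 25.3 CPM in *Eed* KO libraries (log2 fold change 0.25, SE 0.099, adjusted p = 0.194). *Meis2*, *Pbx3*, *Pknox2* and *Pbx4* had log2 fold changes between -0.21 and 0.15.

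Of the 8 genes, 1 passed the adjusted p in the stomach, against 7.91% of all genes, and none passed the adjusted p and the fold, against 5.65%. The groups did not overlap for 5 of 8, against 55.0% of all genes. The median size of change was 0.23 on the log2 scale, beside 0.22 over all genes.

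In the intestine, none of the 8 genes passed the test between *Eed* KO and control cells, with 3.06% of all genes past the adjusted p and 2.61% past the adjusted p and the fold. edgeR gave 1 gene, *Meis1*, an unadjusted p under 0.05, a limit at which all genes were not counted, and DESeq2 also called none. *Meis1* was at 228 and 234 CPM in control and at 196 and 187 CPM in *Eed* KO libraries, again without overlap (log2 fold change -0.27, SE 0.082, adjusted p = 0.152, unadjusted p = 0.0113). *Pknox2* spread widely in the *Eed* KO intestine, at 33.0 and 48.4 CPM, around the control levels of 36.9 and 35.0 CPM (log2 fold change 0.18, 95% interval -0.28 to 0.64). *Pbx2* was at 190 and 179 CPM in control and at 210 and 174 CPM in *Eed* KO libraries (log2 fold change 0.06, 95% interval -0.20 to 0.32). The groups did not overlap for 4 of 8 genes, against 38.3% of all genes, and the median size of change was 0.15 both for the 8 genes and for all genes. The comparisons share libraries where they share a group, so their values are given side by side and were not correlated.

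Endothelial markers were higher in the *Eed* KO libraries, with 3 of 5 called in the stomach and 1 of 5 in the intestine. The summed level of the 5, among them *Pecam1* and *Cdh5*, was 14.4 to 19.2 CPM in the control and 23.7 to 44.2 CPM in the *Eed* KO libraries, with none of the 5 at 0 in any library. The control organs also differed, with 3 of the 5 called higher in the intestine. These were *Pecam1* (log2 fold change 2.51), *Emcn* (2.62) and *Cdh5* (1.8), whereas *Kdr* pointed the other way (-0.57, not called). Of the other cell type markers, *Des* was called higher and *Dcn*, *Epcam* and *Wt1* lower in the control intestine. Between genotypes in the stomach, *Pdgfra* (log2 fold change -0.49, adjusted p = 0.0498) and *Foxf1* (-0.62, adjusted p = 0.0156) passed the adjusted p and were lower. Of the 8 mesenchymal markers, 5 pointed lower and 3 higher there, and none passed in the intestine. *Lyz2* (-1.08) was called lower and *Upk3b* (-0.97) passed the adjusted p only in the *Eed* KO stomach. The other leukocyte and mesothelial markers tested pointed higher there. None of 6 smooth muscle markers passed the adjusted p between genotypes in either organ, and 4 of 6 were called higher in the *Eed* KO intestine than in the *Eed* KO stomach. Their summed level was 2853 and 2970 CPM in the control stomach, 1820 and 2059 CPM in the *Eed* KO stomach, 4058 and 2759 CPM in the control intestine and 3243 and 5520 CPM in the *Eed* KO intestine. The part of these cell types in the values of the 8 genes, the *Meis3* difference between control organs included, was not tested. In sorted bulk cells, fewer cells of a type and less RNA per cell cannot be told apart.

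Between the *Eed* KO organs, with libraries not paired by replicate number, none of the 8 genes passed the test. Of all genes, 6.33% were past the adjusted p and 4.4% past the adjusted p and the fold. Some of the 8, and more of all genes, passed in the fit with a replicate block, given at the end. *Pbx2* came nearest, at 210 and 174 CPM in the *Eed* KO intestine and 149 and 138 CPM in the *Eed* KO stomach, without overlap (log2 fold change 0.42, SE 0.11, adjusted p = 0.0749). DESeq2 gave it an adjusted p of 0.0350 and RUVg 0.0171, and the value without replicate 2 of the *Eed* KO intestine was 0.0323. *Pknox2* was at 33.0 and 48.4 CPM in the intestine and at 26.6 and 32.5 CPM in the stomach (log2 fold change 0.46, SE 0.20, adjusted p = 0.250). *Meis3*, at 27.5 and 28.0 against 23.6 and 25.3 CPM, had a log2 fold change of 0.18 (95% interval -0.05 to 0.41). The groups did not overlap for 6 of 8 genes, against 44.5% of all genes. By edgeR, 2 genes, *Pbx2* and *Pknox2*, had an unadjusted p under 0.05. How many of all genes fell under that limit was not counted.

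Whether the effect of *Eed* loss differed between intestine and stomach was tested with the interaction of genotype and organ, here with an adjusted p of 0.2 as the limit, which 0.512% of all genes passed, or 0.462% with the fold as well. None of the 8 genes did in this fit, where libraries were not paired by replicate number. Some did with the replicate block, in which more of all genes passed as well, given at the end. The largest in size was *Meis3*, for which the log2 fold change in the intestine minus that in the stomach was -0.37 (SE 0.14, unadjusted p = 0.0322, adjusted p = 0.770), and it was the only member with an unadjusted p under 0.05. The number of all genes under that limit was not counted. DESeq2 called none. The intervals of the other 7 genes included 0, and that of *Pbx4* was the widest, from -1.0 to 1.55.

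Over the 4 comparisons between groups of embryonic libraries, the 32 log2 fold changes of the 8 genes ran from -0.36 to 0.55. For 30 of them the whole 95% interval lay between -1 and 1. The other 2 belonged to *Pbx4*, whose few counts left intervals from as low as -1.12 to as high as 1.23, so that in those comparisons a 2-fold change of *Pbx4* could not be told from none at this depth. Without *Pbx4*, the outermost bounds were -0.55 and 0.92.

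**Figure D2:**
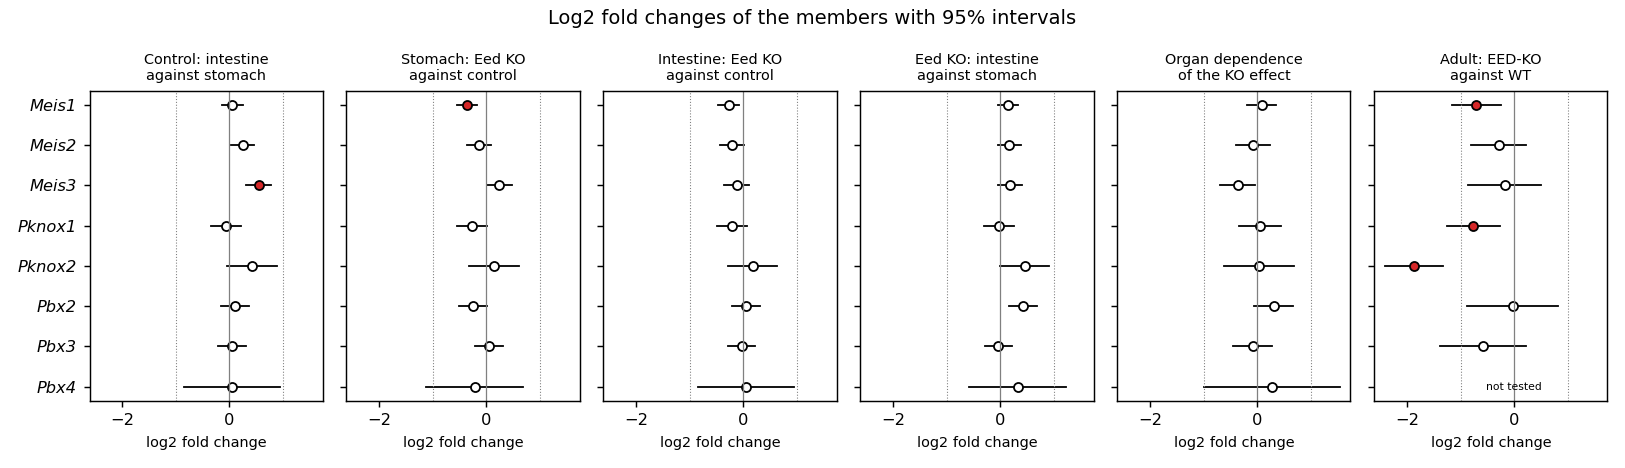
Log2 fold changes (points) with 95% intervals (bars) from edgeR for the 8 genes in the 6 comparisons, where filled points passed an adjusted p of 0.05 (0.2 in the organ dependence panel). Only *Meis3* between control organs, *Meis1* in the stomach and *Meis1*, *Pknox1* and *Pknox2* in the adult cells are filled, and only the adult *Pknox2* interval, -2.42 to -1.33, lies wholly beyond a log2 fold change of 1, marked by dotted lines.

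The Hox genes with which these proteins act were measured in the same libraries. Their summed level in the embryonic libraries was 512 to 672 CPM, and that of the 8 cofactor genes was 873 to 1140 CPM. CPM are not corrected for gene length, so these sums do not show which list had more transcripts. Of 39 Hox genes tested, 17 were called higher and 3 lower in the intestine of controls than in their stomach by the adjusted p and the fold, and the median size of their log2 fold change was 1.61. With *Eed* loss, 19 rose and 6 fell in the stomach, with a median size of 2.61. In the intestine, 5 rose and 3 fell, with a median size of 0.84. *Hoxa10*, a posterior Hox gene, had no counts in the control stomach and was at 40.6 and 36.9 CPM in the *Eed* KO stomach, at least 446-fold higher than the level of 3 counts per library. It was at 27.6 and 24.2 CPM in the control intestine, at least 298-fold higher than that level. *Hoxa4*, an anterior Hox gene, fell from 31.0 and 31.8 to 10.3 and 9.57 CPM in the stomach (log2 fold change -1.66, adjusted p = 0.000926) and from 39.3 and 32.6 to 9.21 and 10.7 CPM in intestinal cells (log2 fold change -1.85, adjusted p = 0.00135). *Hoxb13*, the most posterior gene of its cluster, had no counts in either control organ and was at 6.49 and 8.84 CPM in the *Eed* KO intestine, at least 75.9-fold higher than 3 counts per library.

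Between the control organs, *Hoxb9* was the called Hox gene with the largest decrease, at 0.759 and 0.539 CPM in the intestine against 4.41 and 3.31 CPM in the stomach (log2 fold change -2.55, adjusted p = 0.00119). Between the *Eed* KO organs, 10 Hox genes were called higher in the intestine, led by *Hoxd10* (21.9 and 13.9 against 1.10 and 1.86 CPM), and 1 was lower, *Hoxc13* (0.554 and 0.485 against 1.96 and 2.58 CPM). The interaction of genotype and organ was past its limits for 16 Hox genes, 2 positive and 14 negative. Among those with a mean of at least 1 CPM, *Hoxa10* had the most negative value (log2 difference -12.66, adjusted p = 0.00989), whose size depends on the prior count because the control stomach had no counts, and *Hoxb9* the most positive (2.02, adjusted p = 0.0734).

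Other genes of the TALE class, the *Irx*, *Tgif* and *Mkx* genes, were taken as a second list of 10, with the gene of the Pbx-binding inhibitor *Pbxip1* among them, of which 8 were tested in the embryonic libraries. *Mkx*, a regulator of tendon and mesenchyme, was called lower in the intestine than in the stomach of controls, at 7.33 and 6.40 against 26.7 and 23.5 CPM (log2 fold change -1.87, adjusted p = 0.000990), the 1 call of the list in that comparison. In the *Eed* KO intestine it rose to 16.0 and 18.0 CPM (log2 fold change 1.31, adjusted p = 0.00979), 1 of 3 genes of the list that rose there. In the *Eed* KO stomach, 2 of the 8 rose, and *Irx2*, an Iroquois gene, went from 0.261 and 0.0765 to 3.19 and 3.84 CPM (log2 fold change 4.39, adjusted p = 0.00330). None of the list was called between the *Eed* KO organs or in the interaction.

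**Figure D3:**
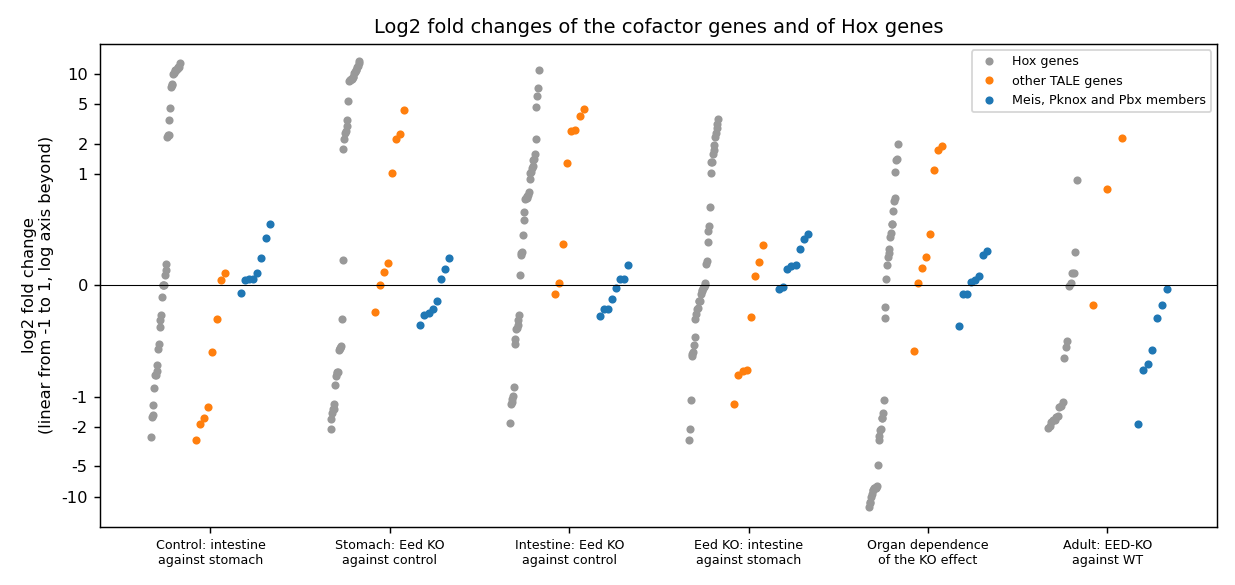
Log2 fold changes of each tested Hox gene (gray), other TALE gene (orange) and *Meis*, *Pknox* or *Pbx* gene (blue) in the 6 comparisons, sorted within each list, on an axis that is linear from -1 to 1 and logarithmic beyond. The blue points stay between -0.37 and 0.55 in the 5 embryonic panels while gray points reach beyond 10 in size where a group had no counts, which makes their size depend on the prior count.

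In the adult mesenchyme, the question was which genes change when *Eed* is lost from *Pdgfrb*-positive cells after development. *Pknox2* was lower in the EED-KO libraries. It was at 43.7 and 48.4 CPM in WT and at 13.9 and 11.2 CPM in EED-KO libraries, far from overlap. The log2 fold change was -1.87 (SE 0.23, 95% interval -2.42 to -1.33, adjusted p = 0.00182), which leaves 27.3% of the WT level. When any 1 of the 4 libraries was left out, it stayed between -2.06 and -1.73 with adjusted p from 0.00204 to 0.00463.

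*Pknox1* and *Meis1* passed the adjusted p in the adult comparison but not the fold. *Pknox1* was at 47.2 and 59.8 CPM in WT and at 31.2 and 31.9 CPM in EED-KO libraries (log2 fold change -0.76, SE 0.21, adjusted p = 0.0388). *Meis1* was at 158 and 138 CPM and at 95.7 and 85.8 CPM (log2 fold change -0.70, SE 0.19, adjusted p = 0.0372). The EED-KO libraries were below the WT libraries in both genes. Without 1 library, the adjusted p of *Pknox1* was between 0.0588 and 0.232. That of *Meis1* was 0.197 and 0.0879 without WT replicate 1 or 2, 0.0889 without EED-KO replicate 2 and 0.0363 without EED-KO replicate 1.

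The other genes did not pass. *Pbx3* was at 14.6 and 9.67 CPM in WT and at 7.53 and 8.66 CPM in EED-KO libraries (log2 fold change -0.58, SE 0.34, adjusted p = 0.258). *Meis2* had a log2 fold change of -0.29 (SE 0.22), *Meis3* of -0.18 (SE 0.29, with EED-KO libraries at 34.8 and 20.3 CPM on either side of the WT levels of 29.3 and 33.0 CPM) and *Pbx2* of -0.03 (SE 0.36, from 71 to 94 counts per library). *Pbx4* was not tested, having failed the filter on low counts with 5 and 13 counts in WT and 5 and 1 in EED-KO libraries.

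Of the 7 genes tested, 3 passed the adjusted p, against 23.5% of all 15039 genes, all of them lower, against 9.39% of all genes. *Pknox2* alone was past the adjusted p and the fold, against 19.6% of all genes and 7.23% in the lower direction. The groups did not overlap for 5 of the 7, against 65.3% of all genes. The median log2 fold change was -0.58 over the 7 genes and 0.00 over all genes, and the median size was 0.58 and 0.60.

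Markers of several cell types moved with the adult groups. The summed level of the 8 mesenchymal markers was 22340 and 24790 CPM in WT and 13050 and 12280 CPM in EED-KO libraries, with 4 of 8 called lower. *Dcn* was the largest part of that sum, at 10960 and 12890 CPM in WT and 8064 and 8802 CPM in EED-KO libraries. The log2 fold changes of the 8 ran from -1.79 to -0.19, with a median of -0.98, so scaling to the sum follows *Dcn* more than the others. *Pdgfra*, for example, went from 1153 and 916.5 to 327.5 and 269.5 CPM. The 5 leukocyte markers measured, which include *Ptprc* and *Csf1r*, summed to 525 and 626 CPM in WT and to 11530 and 9640 CPM in EED-KO libraries. All 5 were called higher and none was at 0. The 6 smooth muscle markers summed to 1820 and 2257 CPM in WT and to 3149 and 3707 CPM in EED-KO libraries, with 3 of 6 called higher. Markers of enteric neural crest and neurons were low in both, at 2.56 and 3.01 against 18.9 and 20.6 CPM, with 1 of 4 tested called higher. EED-KO replicate 2 also held 691 CPM of pancreatic markers, nearly all *Cpa1*, against 10.7 to 20.4 CPM in the other adult libraries. Scaled to the mesenchymal markers, an alternative chosen after the data were seen, *Pknox2* had a log2 fold change of -0.98 (SE 0.23, adjusted p = 0.0144), which is past the adjusted p but no longer past the fold. *Meis1* was then at 0.18 (adjusted p = 0.480) and *Pknox1* at 0.14 (adjusted p = 0.586), so that both changed direction. Per 1000 CPM of mesenchymal markers, *Pknox2* was at 1.96 and 1.95 CPM in WT and at 1.07 and 0.913 CPM in EED-KO libraries. *Meis1* was at 7.05 and 5.57 and at 7.34 and 6.99 CPM, and *Pknox1* at 2.11 and 2.41 and at 2.39 and 2.60 CPM. With that scaling, the log2 fold change of the median gene moved by 0.89, and with spike-in totals by -0.42, with *Pknox2* at -2.30. The part of the leukocyte, smooth muscle and neural transcripts in these values was not tested.

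Of the other TALE genes, 3 were tested in the adult libraries and *Tgif1*, a corepressor in TGF-beta signaling, rose from 31.3 and 28.7 to 124 and 174 CPM (log2 fold change 2.31, adjusted p = 0.000809). Of 19 Hox genes tested, 3 fell and none rose by the adjusted p and the fold. *Hoxd8* fell from 5.49 and 5.68 to 1.61 and 1.62 CPM (log2 fold change -1.78, adjusted p = 0.0349).

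Chromatin accessibility was taken from the 4 lists of ATAC-seq peaks in mm10, each pooled over 2 samples, so no error can be given between replicates. The positions of the genes, in the same build and from GENCODE vM4 as used for counting, are chr11:18879817-19018985 on the minus strand for *Meis1*, chr2:115863064-116065839 minus for *Meis2*, chr7:16175090-16186504 plus for *Meis3*, chr17:31564749-31607684 plus for *Pknox1*, chr9:36890982-37147322 minus for *Pknox2*, chr17:34591266-34597400 plus for *Pbx2*, chr2:34171457-34373142 minus for *Pbx3* and chr8:69832491-69872292 plus for *Pbx4*. All 8 had 1 peak within 1000 bp of their outermost start in each of the 4 lists. Of 16191 genes tested for RNA and placed at 1 locus, 88.0%, 88.4%, 89.1% and 89.1% had such a peak in the control intestine, control stomach, *Eed* KO intestine and *Eed* KO stomach lists, and 87.0% in all 4.

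The promoter peaks of most of these genes were wide and low. *Pknox2* had peaks of 3144, 3123, 3295 and 3094 bp in the control intestine, control stomach, *Eed* KO intestine and *Eed* KO stomach, at percentiles 96.9 to 98.2 of width among all promoter peaks. Their fold enrichment, the signal over the MACS2 background, was 3.87, 4.40, 3.99 and 4.24, at percentiles 10.1 to 16.7. *Meis1* was alike, with 2611 to 3012 bp and 4.05- to 4.33-fold, and *Pbx3* as well, with 2274 to 2430 bp and 4.37- to 4.90-fold. *Meis2* had 2405 to 2444 bp in 3 lists and 4108 bp in the *Eed* KO stomach, where the peak ran further into the gene, and 3.27- to 3.77-fold. In each list this peak also covered the starts of G630016G05Rik and 2700033N17Rik, at -1386 and -1605 bp from the *Meis2* start, so its width is not that of *Meis2* alone. *Pknox1* had 1783 to 2163 bp and 4.76- to 5.60-fold, and *Meis3* 1188 to 1808 bp and 4.88- to 6.39-fold. The *Pknox1* peak also covered the start of Gm24970, 294 bp into the gene on the opposite strand. The median promoter peak of all genes was 1103 to 1208 bp wide and 6.46- to 6.91-fold enriched, depending on the list.

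*Pbx4* was the opposite. Its promoter peak was narrow, 677 to 686 bp, and high, 12.7-, 12.9-, 12.2- and 12.4-fold, at percentiles 97.8 to 98.9 of fold enrichment, although its transcript was the lowest of the 8 at 0.612 to 1.13 CPM. *Pbx2* had the lowest fold enrichment, 2.61, 2.78, 2.87 and 3.30, at percentiles 1.14 to 6.00, with the highest TPM of the 8. The *Pbx2* peak began 761 to 834 bp inside the gene, and GENCODE vM21 lists 4 coding transcript starts of *Pbx2* over 2129 bp. With a window of 250 bp in place of 1000 bp around the outermost start, *Pbx2* was the member without a promoter peak, in each list.

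Between lists, the promoter peaks of the 8 genes kept their heights closely. The log2 ratio of fold enrichment of *Eed* KO over control lay between -0.24 and 0.16 in the intestine and between -0.22 and 0.24 in the stomach. The central 90% of all promoter peaks ran from -0.38 to 0.21 and from -0.29 to 0.26. *Meis3* had the lowest ratio in both organs (-0.24 and -0.22), and *Pbx2* was positive in both (0.13 and 0.24). Control intestine over control stomach gave -0.18 to 0.03. The lists of a condition have no replicates, so these ratios were not tested.

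**Figure D4:**
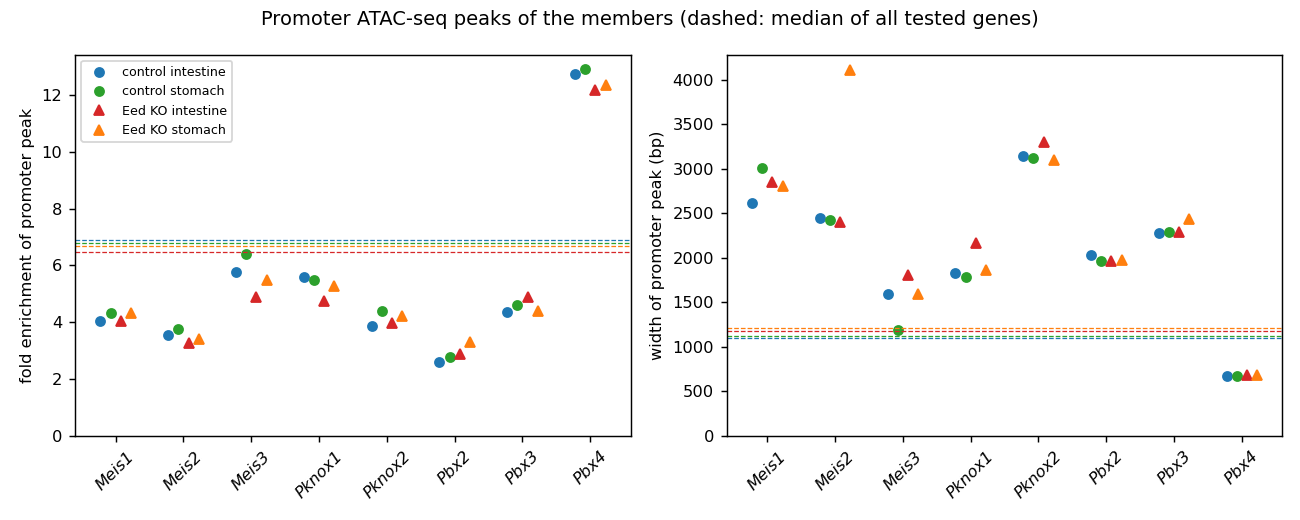
Fold enrichment (left) and width in bp (right) of the promoter peak of each gene in the 4 lists, with the median of all tested genes in each list as a dashed line of the same color. *Pbx4* lies above 12-fold with widths of 677 to 686 bp, while the other 7 genes lie below the median fold enrichment in every list.

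Promoter sequence was read for the 5 of the 8 genes that have an entry in the RefSeq promoter table (GRCm38.p6, 250 bases before to 50 after the RefSeq start): *Meis1*, *Meis2*, *Meis3*, *Pbx2* and *Pbx4*. *Meis3*, not printed, had 66.7% GC. The sequences of *Pbx4* (chr8:69832374-69832673, plus strand), *Meis1* (chr11:19018920-19019219, minus), *Meis2* (chr2:116064570-116064869, minus) and *Pbx2* (chr17:34592009-34592308, plus) are shown, since they cover the narrow high peak, a wide peak, a start that lies outside the peak in 3 lists and the lowest peak. They read 5′ to 3′ on the gene strand, and capitals mark CpG dinucleotides.
Pbx4: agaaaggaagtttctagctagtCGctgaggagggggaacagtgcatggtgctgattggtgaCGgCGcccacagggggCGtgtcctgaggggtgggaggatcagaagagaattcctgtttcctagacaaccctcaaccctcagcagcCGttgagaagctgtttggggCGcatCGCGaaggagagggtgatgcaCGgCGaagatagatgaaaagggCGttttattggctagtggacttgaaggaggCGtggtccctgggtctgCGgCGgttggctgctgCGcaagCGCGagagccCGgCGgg
Meis1: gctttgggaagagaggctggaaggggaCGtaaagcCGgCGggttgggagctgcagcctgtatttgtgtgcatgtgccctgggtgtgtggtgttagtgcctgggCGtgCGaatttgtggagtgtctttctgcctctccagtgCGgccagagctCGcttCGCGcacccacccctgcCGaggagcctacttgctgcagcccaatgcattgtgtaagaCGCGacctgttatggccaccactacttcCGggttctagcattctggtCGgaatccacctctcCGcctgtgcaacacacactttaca
Meis2: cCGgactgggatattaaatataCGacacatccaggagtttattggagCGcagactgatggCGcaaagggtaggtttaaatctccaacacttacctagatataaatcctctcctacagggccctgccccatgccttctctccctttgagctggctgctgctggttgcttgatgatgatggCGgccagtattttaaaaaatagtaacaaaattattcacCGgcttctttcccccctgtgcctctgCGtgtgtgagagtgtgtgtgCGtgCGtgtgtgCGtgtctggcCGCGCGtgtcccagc
Pbx2: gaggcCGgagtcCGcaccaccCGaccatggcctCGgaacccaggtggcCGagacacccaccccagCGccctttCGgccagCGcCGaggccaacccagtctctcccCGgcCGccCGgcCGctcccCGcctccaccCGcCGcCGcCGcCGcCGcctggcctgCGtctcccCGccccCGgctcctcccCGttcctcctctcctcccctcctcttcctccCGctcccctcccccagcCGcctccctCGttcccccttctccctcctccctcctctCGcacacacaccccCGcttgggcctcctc

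*Pbx2* had 29 CpGs in these 300 bases with 76.0% GC, *Pbx4* 19 with 59.3%, *Meis1* 15 with 58.3% and *Meis2* 13 with 51.0%. The median of the 32851 promoters in the table was 52.7% GC with an observed to expected CpG ratio of 0.384. The ratio was 0.882 for *Pbx2*, 0.799 for *Pbx4*, 0.688 for *Meis3*, 0.666 for *Meis2* and 0.589 for *Meis1*, all above that median. The *Pbx4* and *Meis1* windows lay wholly inside the peak in all 4 lists. Of the 300 bases of the *Pbx2* window, 282, 221, 219 and 209 lay inside it in the control intestine, control stomach, *Eed* KO intestine and *Eed* KO stomach. The *Meis2* window, downstream of the outermost start, lay outside the promoter peak in 3 lists and wholly inside it in the *Eed* KO stomach. On either strand, TGACAG, the core site known for Meis and Pknox proteins, was in none of the 5 windows and in 19.2% of all promoters in the table, and TGATTNAT, a composite Pbx-Hox site, was in none and in 3.22%.

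Along the gene bodies, with 1000 bp upstream of the outermost start, *Pknox2* had 30, 31, 33 and 34 peaks in the control intestine, control stomach, *Eed* KO intestine and *Eed* KO stomach, *Meis1* 22, 30, 24 and 21, *Meis2* 30, 32, 24 and 24 and *Pbx3* 11, 13, 8 and 10. *Pknox1* had 3 to 5 peaks, *Pbx4* 2 to 5, *Meis3* 2 and *Pbx2* 1 in each list. Merged over the lists, these made 146 regions, of which 73 (50%) were in all 4 lists, beside 46.0% of the 162108 regions of the genome. Along the 8 genes, 10 regions were in both control lists only, of which 5 lay in *Meis2* and 3 in *Meis1*, and 7 were in both *Eed* KO lists only, of which 3 lay in *Meis2* and 3 in *Pknox2*. These are 6.85% and 4.79% of the regions along the 8 genes, beside 2.15% and 4.18% of all regions of the genome. No test was made of these shares. Peaks in these control-only and *Eed* KO-only regions were weak, with a highest −log10 q of 4.18, in *Pknox2* in the control intestine. The alternative limit of 5 was applied to promoter peaks only, so these regions were not recounted with it. Of the 102 peaks along these genes in the control intestine, 84.3% overlapped a control stomach peak and 74.5% an *Eed* KO intestine peak by at least 1 bp. Of the 114 in the control stomach, 76.3% overlapped a control intestine peak and 73.7% an *Eed* KO stomach peak.

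**Figure D5:**
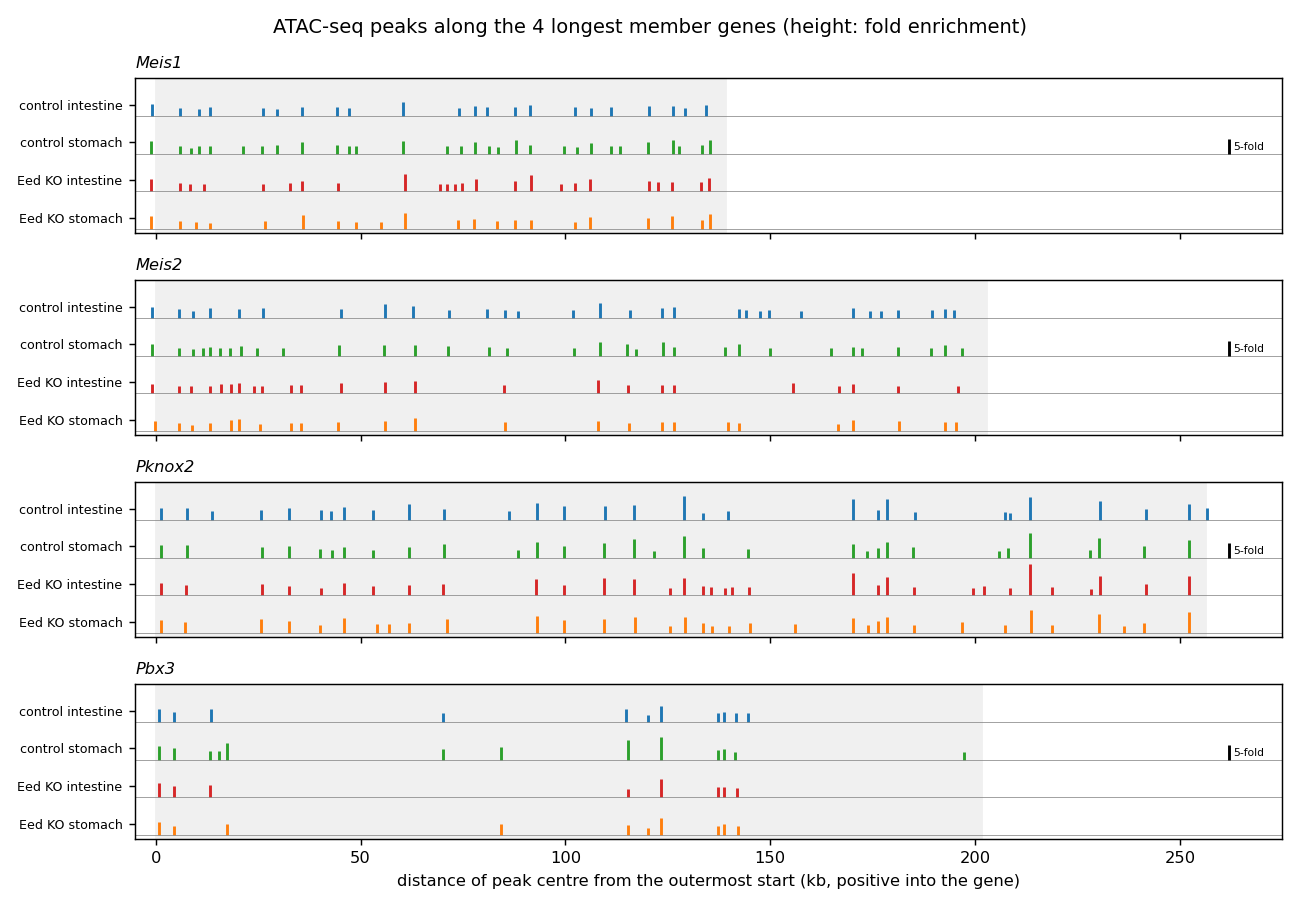
Peaks along the 4 longest of the genes in each list, drawn at the distance of the peak center from the outermost start in kb, with height proportional to fold enrichment (scale bar, 5-fold) and the gene body shaded. *Pknox2* carries 30 to 34 peaks per list, among them one of 7.68- to 10.4-fold, 213398 to 213692 bp from the start, in all 4 lists.

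Of the peaks more than 5000 bp from the outermost start along the 8 genes, the highest lay in an intron of *Pknox2*, 213408 bp from that start. It was at chr9:36933725-36934104 in the *Eed* KO intestine, with a fold enrichment of 10.4. The overlapping peaks had fold enrichments of 7.68 in the control intestine, 8.37 in the control stomach and 7.69 in the *Eed* KO stomach. Each of the 4 was higher than the peak at the outermost start of *Pknox2* in its list. GENCODE vM21 lists 7 coding transcript starts of *Pknox2* over 64128 bp and 8 of *Pknox1* over 26994 bp. Distances to starts other than the outermost were not measured. The central 300 bases of the *Eed* KO intestine peak (chr9:36933765-36934064, GRCm38.p6, minus strand, 5′ to 3′) are shown because they hold 1 TGACAG site on the opposite strand, marked in capitals.
Pknox2 intron: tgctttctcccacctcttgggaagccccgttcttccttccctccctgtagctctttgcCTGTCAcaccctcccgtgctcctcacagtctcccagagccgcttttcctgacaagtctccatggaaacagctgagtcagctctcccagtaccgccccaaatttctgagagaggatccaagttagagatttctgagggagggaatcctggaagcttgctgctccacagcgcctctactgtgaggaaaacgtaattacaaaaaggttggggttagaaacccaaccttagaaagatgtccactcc

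TGACAG was present on either strand in 21.5% of the central 300 bases of the 85082 peaks of this list that were at least 300 bases long, so the match describes this sequence and names no bound factor. In *Pbx3*, the highest peak over 5 kb from the start was intronic in each list, 123244 to 123361 bp from the outermost start, at 5.31-, 7.44-, 5.99- and 5.57-fold. In *Meis1* the corresponding peaks were at 4.60- to 5.71-fold and in *Meis2* at 4.47- to 5.12-fold, all in introns, though not at the same site in each list. *Meis3* had 1 such peak in each list, 5.43- to 6.40-fold, 8701 to 8786 bp from its start.

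Some exons of these genes overlap other gene models, and reads there may be lost or split between the models. *Meis1* shares 1029 of its 10532 exon bases with RP23-377H12.4 on the same strand and 896 with Gm16140 on the opposite strand, and the unstranded adult counts cannot tell the latter apart. *Pbx2* shares 227 of its 3640 exon bases with *Gpsm3* on the same strand. The other 6 genes share no exon bases with another model.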

How the data were processed

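RNA-seq was available for 8 embryonic and 4 adult libraries and ATAC-seq for 8 embryonic samples, with 2 per group throughout. The deposited counts are raw read counts per gene, which the authors made with Trimmomatic (0.32), STAR (2.5.1b) on mm10 and featureCounts with GENCODE vM4. Embryonic libraries were stranded poly(A) libraries with added SIRV spike-in RNA, and adult libraries came from a low-input kit and were counted without strand. For ATAC-seq, the authors aligned with BWA-mem, pooled the replicates of a condition and called broad peaks with MACS2 (2.1.2). In the deposited lists, peak height is a fold enrichment over background, q is given as a −log10 value, and the browser score follows the −log10 q and was not used here.

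Counts were tested with edgeR (4.0.16) quasi-likelihood F-tests in R (4.3.3), after TMM scaling and filterByExpr, with Benjamini-Hochberg adjustment over all genes tested. The 4 embryonic groups shared 1 fit (16218 genes, biological coefficient of variation 15.8%) and the adult groups had their own (15039 genes, 29.1%). A gene was called where its log2 fold change was beyond 1 in size and its adjusted p below 0.05 (0.2 for the interaction), and SE and 95% intervals come from the fit. TPM used the gene lengths deposited with the adult counts. A level of 3 counts, used as the floor, was 0.0765 to 0.101 CPM in embryonic and 0.210 to 0.301 CPM in adult libraries, and floors cover counting error only. With 2 libraries per group an exact permutation test of 1 value cannot go below p = 0.333, so none was used. Promoter peaks lay within 1000 bp of the outermost start of the gene model, and overlaps were found with bedtools (2.31.1). Fits were checked on simulated data.

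The 8 genes and the gene lists were chosen with earlier results of these data known. Named were all 8 genes, *Eed*, cell type markers and, from the Hox and other TALE lists, the called gene with the largest change in each direction with a mean of at least 1 CPM. Genes of similar pattern were to be named only for members called in an embryonic comparison, and there were none. Protein sequences were not analysed here. Alternatives were DESeq2 (1.42.0), its size factors in edgeR, spike-in totals, 1 RUVg factor, no filter, a replicate block, only the groups compared, each library left out, other peak windows, −log10 q of at least 5 and, added after the data were seen, scaling by mesenchymal markers.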

Additional observations from a re-analysis of the deposited data

How the results depend on the processing

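Of 541 recomputed log2 fold changes of single members, 489 kept their direction and side of the threshold or changed sign with neither value past it (49), 25 lost and 17 gained the threshold and 10 reversed. Except where a value below shows it, the cause was not tested. Scaling by spike-in totals raised the number of members past the adjusted p and the fold from 0 to 8 in the *Eed* KO stomach and from 0 to 6 in the *Eed* KO intestine, and the number past the adjusted p from 1 to 8 and from 0 to 6. Of all 16218 genes, 15438 and 13688 were past the adjusted p and the fold with it. This scaling moved the median of all genes by 2.39 and 1.84 there. It reversed *Meis1* (2.02), *Meis2* (2.29), *Pbx2* (2.12), *Pbx4* (2.17) and *Pknox1* (2.16) in the stomach and *Meis3* (1.73), *Pbx3* (1.88) and *Pknox1* (1.68) in the intestine. It left 0 past the adjusted p between control organs and 1 in the adult cells, where 155 and 2475 of all genes passed. In the adult cells, mesenchymal marker scaling left 0 past the adjusted p and the fold and 1 past the adjusted p, with *Meis1* at 0.18 and *Pknox1* at 0.14, and RUVg also left 1 of 3.

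In the *Eed* KO stomach, RUVg, no filter and a fit of only the groups compared each left 0 of 1 past the adjusted p. Between *Eed* KO organs, DESeq2 gave 1, RUVg 2 and no filter 1, against 0. Over all genes they gave 1434, 1845 and 1517, against 1026. Leaving out 1 library gave 0 to 0 past the adjusted p between control organs, 0 to 0 in the *Eed* KO stomach, 0 to 1 between *Eed* KO organs and 1 to 2 in the adult cells.

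The replicate numbers were not treated as pairs, since no source used here says what they share, although the methods state that both organs were taken from each embryo. Deviations of same-numbered libraries correlated across genes at r = 0.265 between control organs, 0.628 between *Eed* KO organs, 0.047 to 0.151 between genotypes and -0.0604 in the adult cells. With the replicate block, 3 members passed the adjusted p between control organs (*Meis3* 0.00260, *Meis2* 0.0250, *Pknox2* 0.0297), 2 between *Eed* KO organs (*Pbx2* 0.00331, *Pknox2* 0.0219), 2 passed the limit of 0.2 in the interaction (*Pbx2* 0.166, *Meis3* 0.182) and 1 in the adult cells (*Pknox2* 0.00273). Of all 16218 genes, 2595 passed between control organs, 3545 between *Eed* KO organs and 1016 in the interaction with this block, against 1107, 1026 and 83 without it. In the adult cells, 3105 of 15039 genes passed with it.

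Requiring an overlap of 50% of each peak lowered the shared peaks along the genes to 64.7% (control intestine in control stomach), 57.9% (the reverse), 52.9% (control in *Eed* KO intestine), 50% (control in *Eed* KO stomach), 54.0% (*Eed* KO in control intestine) and 55.9% (*Eed* KO in control stomach). A window of 250 bp left 7 member promoters with a peak in each list. A window of 5000 bp and a −log10 q of at least 5 left 8. Depth limited *Pbx4* most, with 24 to 39 counts per embryonic library.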
